A study of Homo sapiens with 12 samples.

Results

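Culture in a serum-based differentiation medium (Cond 3) was compared with general culture (Cond 1) in 201B7, an established human induced pluripotent stem cell (iPSC) line, by RNA-Seq of 3 libraries per condition, 6 of the 12 libraries of the series. The libraries were chosen by their labels alone, and all genes were described. Cond 1 cells received StemFit, a defined medium that keeps iPSCs undifferentiated. Cond 3 cells received DMEM with 10% fetal bovine serum (FBS), 1% MEM non-essential amino acids and 1% GlutaMax. The coating, iMatrix511, a laminin fragment, was common to the cultures, and RNA was taken on Day 5. The remaining libraries were Cond 2 (StemFit heated at 56 °C for 30 min before use) and Cond 4 (cells pipetted 20 times at passage). In the study's account Cond 3 cells were stimulated with FBS on Day 4, and Cond 2 cells with heated medium from Day 2. Cond 3 and Cond 2 thus also differed in the time spent in the altered medium. The study asked how the pluripotent state differs between these cultures. The replicates came from 1 line. The study's results call them technical, while its methods describe the experiment as run 3 times. The p-values measure only the spread between replicate libraries, estimated over all 12 libraries of the series.

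Pluripotent cells in a defined medium depend on added FGF2, which drives ERK signalling, and on activin, NODAL or TGF-beta, which act through SMAD2 and SMAD3. ERK switches on its own inhibitors, the Sprouty proteins and the dual-specificity phosphatases, so the mRNAs of these feedback genes are a usual readout of the pathway. The integrated stress response is a separate circuit in which translation of ATF4 rises when amino acids are short or the endoplasmic reticulum is stressed, and ATF4 then switches on genes of amino acid synthesis, transport and tRNA charging. Serum carries growth factors, lipoproteins and lysophospholipids of undefined amount, and DMEM has its own composition of amino acids and glucose.

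Libraries of Cond 1 held 16690487 to 19935360 counts and those of Cond 3 held 18577119 to 21871503. Tests on counts covered 17747 genes with the quasi-likelihood test of edgeR, and the log2 fold change is that of Cond 3 against Cond 1. Its p-value was adjusted by the Benjamini-Hochberg method over all genes tested. The standard error (SE) in these tests was back-calculated. It is the absolute log2 fold change divided by the square root of the F statistic. TPM, counts per gene length scaled to the same total in every library, is given as the level of a gene, with its SD over n = 3 libraries. Genes changed more than 2-fold with an adjusted p below 0.05 are called DEGs. Fewer cells of a type and less RNA per cell cannot be told apart in such bulk libraries.

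The summed level of the pluripotency markers remained high in Cond 3, although NANOG and some other members fell. Some markers of differentiated cell types rose from low levels. The summed level of 11 pluripotency markers was 7519 to 7898 TPM in Cond 1 and 7964 to 8487 TPM in Cond 3. Among these 11 markers 5 rose and 4 fell. Of the 9 not sharing most of their sequence with other genes or alternate haplotypes, 5 rose, 3 fell and 1 was not called. The LIN28A rise was lost in 3 of the 6 fits that each left out 1 library. The sum also holds TDGF1 and POU5F1, which do share most of their sequence. POU5F1 was listed at means of only 1.32 TPM in Cond 1 and 1.20 TPM in Cond 3, and hardly enters the sum. TDGF1 was listed at 1299 TPM in Cond 1 and 689 TPM in Cond 3 (log2 fold change -0.94, adjusted p = 2.58e-07). Without both genes the sum was 6302 to 6551 TPM in Cond 1 and 7265 to 7806 TPM in Cond 3. The sums mainly reflect abundant members such as LIN28A (mean 1689 TPM in Cond 1), and hardly NANOG (45.9 TPM), whose fall is described below. Over 8 lists of differentiated cell types with 48 members, 30 members were under 1 TPM in all 6 libraries. Of the 22 members tested 9 rose (40.9%) and 0 fell, beside 19.5% of all genes rising and 18.8% falling. These shares are not directly comparable, because a marker near 0 in Cond 1 could pass the filter on low counts only through another condition. Such a marker could be called as a rise but hardly as a fall. Among the 9, POSTN, CLDN5 and AFP had at most 10, 13 and 15 reads in any Cond 1 library. The part of differentiated cells in the results was not tested.

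The fibroblast list summed to 293 to 316 TPM in Cond 1 and 541 to 578 TPM in Cond 3, mostly COL1A1 and COL1A2. COL1A1, a collagen I chain that iPSCs also express, rose from 246 to 436 TPM (log2 fold change 0.80, SE 0.067, adjusted p = 3.42e-09), and COL1A2, its partner chain, from 47.0 to 109.8 TPM (adjusted p = 2.45e-12). POSTN, the matrix protein periostin, was at 0.332, 0 and 0.187 TPM in Cond 1 and at 2.42, 3.28 and 1.79 TPM in Cond 3 (13.4-fold, adjusted p = 3.67e-05), without overlap, whereas LUM, PRRX1, COL3A1, DCN and FAP were under 1 TPM throughout. The endothelial list summed to 25.3 to 27.9 TPM in Cond 1 and 53.3 to 61.9 TPM in Cond 3, nearly all of it TEK, an angiopoietin receptor, which rose 2.05-fold (adjusted p = 2.21e-09). CLDN5, an endothelial tight junction claudin, was at 0.688, 0.124 and 0.597 TPM in Cond 1 and at 3.33, 3.14 and 3.02 TPM in Cond 3 (6.38-fold, adjusted p = 0.000787), without overlap, and PECAM1, CDH5, ERG and EMCN were under 1 TPM. The endoderm and liver list summed to 1.84 to 3.97 TPM in Cond 1 and 6.93 to 11.8 TPM in Cond 3. AFP, alpha-fetoprotein, was at 0.0557, 0 and 0.785 TPM in Cond 1 and at 3.21, 4.99 and 3.35 TPM in Cond 3 (log2 fold change 3.63, adjusted p = 0.000377, and 6.68 without Cond 1 replicate 3), without overlap. APOA1, an apolipoprotein, rose from 2.48 to 5.29 TPM (adjusted p = 0.0430), a call lost in 4 of the 6 fits that each left out 1 library (Cond 1 replicate 1 or 3, Cond 3 replicate 1 or 2, adjusted p up to 0.178), and SOX17, FOXA2, ALB and TTR were under 1 TPM. POSTN also moved with the library left out, to 4.53 without Cond 1 replicate 1, against 3.74. In the neuron list, which summed to 33.4 to 34.8 TPM in Cond 1 and 50.7 to 53.6 TPM in Cond 3, DCX, the microtubule protein doublecortin of young neurons, was at 2.35, 1.60 and 1.96 TPM in Cond 1 and at 6.57, 5.50 and 5.48 TPM in Cond 3 (2.91-fold, adjusted p = 6.71e-07) without overlap, STMN2 (described below with the neurite genes) rose, and SNAP25 and ELAVL4 were under 1 TPM. SYT1 and RBFOX3, the highest of the neuron list in Cond 1, were not called. They went from 16.5 to 19.2 TPM and from 14.0 to 12.7 TPM (adjusted p = 0.0954 and 0.132, edgeR). In the fibroblast list PDGFRB (7.97 to 7.30 TPM) and TWIST2 (2.11 to 2.37 TPM) were not called either. The muscle list, with 0 of 5 tested members called, summed to 11.8 to 16.3 TPM in Cond 1 and 9.25 to 12.5 TPM in Cond 3. Of the 6 trophoblast markers GCM1, HSD3B1 and ELF5 were listed at 0 in all 6 libraries, and the keratinocyte list (TP63, KRT5, KRT14 and KRT1) stayed at or below 0.0730 TPM in sum.

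**Figure D1:**
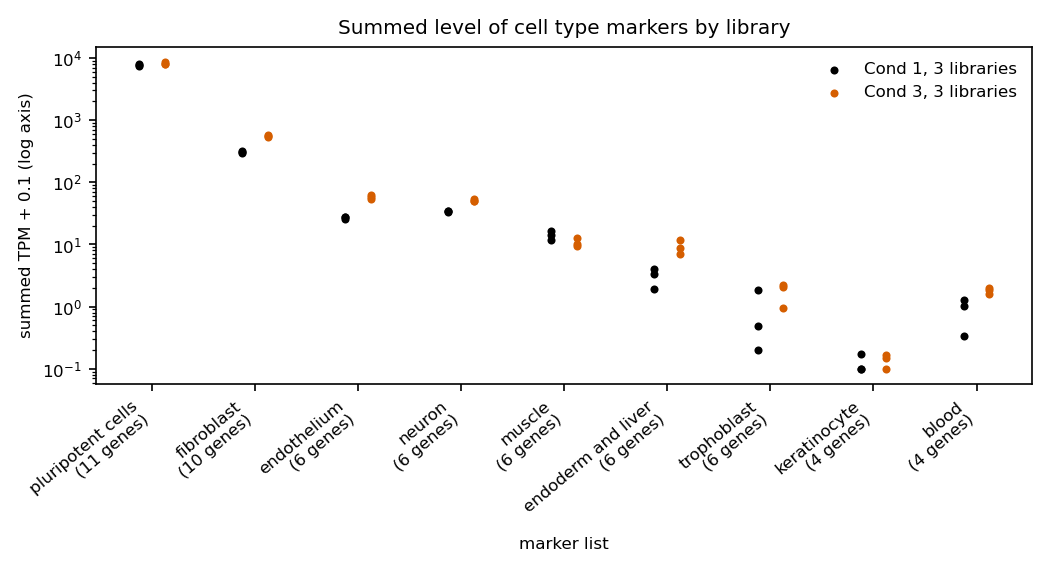
Summed TPM (plus 0.1, log axis) of 9 marker lists in each of the 3 libraries of Cond 1 (black) and Cond 3 (orange). The pluripotency list stays between 7519 and 8487 TPM in all 6 libraries, and the keratinocyte list is at or below 0.0730 TPM.

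In total, 1449 genes were DEGs, of which 861 were higher in Cond 3 (4.85% of the genes tested) and 588 lower (3.31%). Without the fold threshold 3468 genes rose (19.5%) and 3343 fell (18.8%), and the median log2 fold change of all genes was -0.01. Counts of rises and falls in the gene lists below are to be read beside these shares. Large changes were fewer, with 233 genes more than 4-fold higher and 157 more than 4-fold lower. The number of DEGs depended on the treatment of weakly expressed genes, with 663 when every one of the 12 libraries had to reach 1 TPM, and 484 when limma on log2(TPM + 1) was used under that filter.

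**Figure D2:**
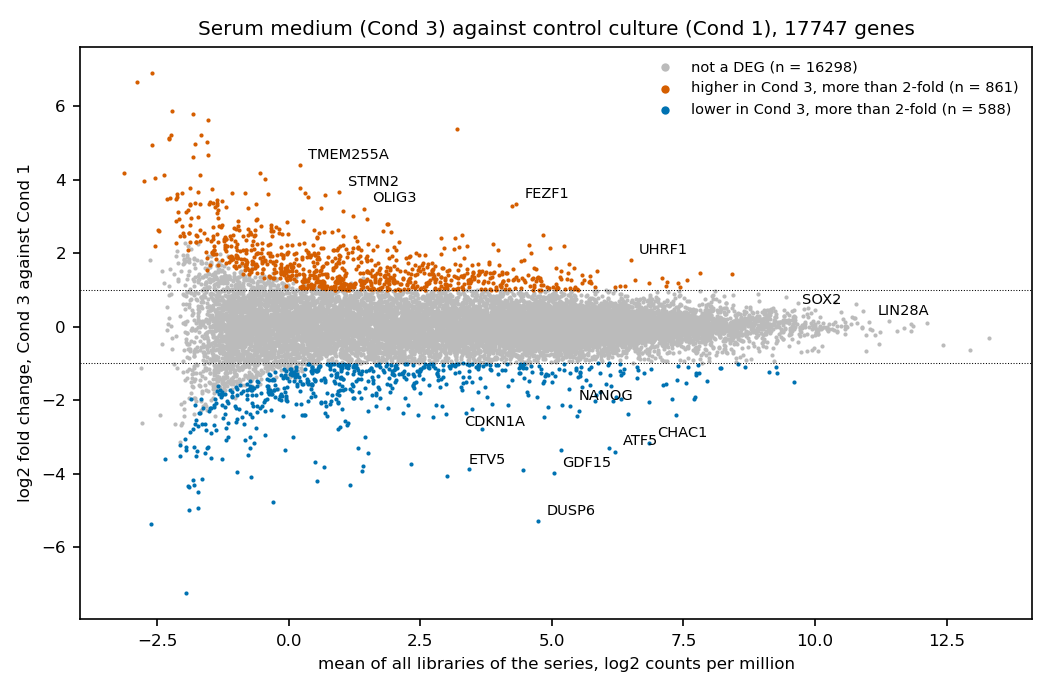
Log2 fold change of Cond 3 against Cond 1 (vertical) against the mean level of each gene in log2 CPM (counts scaled by library size, horizontal) for the 17747 genes tested; orange, the 861 DEGs higher in Cond 3, blue, the 588 lower, grey, all others. DUSP6 is the strongest fall among the well expressed genes, at -5.29, while SOX2 and LIN28A lie near 0 at the right.

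ERK feedback genes fell together in Cond 3. Of the 20 genes in the list, 19 were tested, 17 fell, none rose, and 10 were DEGs, beside 18.8% of all genes falling and 3.31% being lower DEGs. The median log2 fold change of the list was -1.08. DUSP6, a phosphatase that removes the activating phosphates from ERK in the cytoplasm, was at 86.7, 67.1 and 60.1 TPM in Cond 1 and at 2.2, 1.70 and 1.61 TPM in Cond 3. Every Cond 3 library lay more than 10-fold below every Cond 1 library for this gene. Its log2 fold change was -5.29 (SE 0.17, adjusted p = 7.12e-16), a fall of 39.1-fold, and 33 to 52 reads per library remained in Cond 3 against 1223 to 1844 in Cond 1. ETV5, an ETS transcription factor induced by FGF, stood at 38.6, 27.9 and 31.7 TPM in Cond 1 and at 1.61, 3.10 and 2.02 TPM in Cond 3 (log2 fold change -3.90, SE 0.18, adjusted p = 1.38e-13). SPRY4, a Sprouty inhibitor of receptor tyrosine kinase signalling, was found at 87.9, 81.8 and 77.7 TPM in Cond 1 and at 13.8, 18.6 and 16.4 TPM in Cond 3 (log2 fold change -2.37, SE 0.096, adjusted p = 1.96e-14). The conditions did not overlap for either gene. DUSP4, a nuclear phosphatase of ERK and other MAP kinases, was 3.81-fold lower (log2 fold change -1.93, adjusted p = 5.89e-09). MYC, a growth-promoting transcription factor and a target of ERK, fell 3.14-fold from 54.0 to 17.6 TPM (log2 fold change -1.65, adjusted p = 1.46e-10).

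FGF ligands and receptors themselves moved in both directions. Of 13 tested, 7 rose and 4 fell. FGF19, an endocrine-type FGF, was at 14.9, 15.4 and 17.0 TPM in Cond 1 and at 3.50, 3.31 and 2.48 TPM in Cond 3 and fell 5.15-fold (adjusted p = 2.05e-07). FGF13, an intracellular FGF-like protein, fell 2.14-fold (adjusted p = 2.05e-10). FGF4, a ligand made by pluripotent cells, was weak, at 0.459, 0.469 and 0.809 TPM in Cond 1 and at 1.24, 1.56 and 3.10 TPM in Cond 3, and its rise (log2 fold change 1.70, SE 0.48, adjusted p = 0.00744) was not called when the Cond 3 library with the highest value, replicate 3, was left out (log2 fold change 1.21, adjusted p = 0.0816). PDGFB, which encodes a growth factor chain and has no count row, fell from 25.7 to 3.04 TPM (log2 fold change -2.73 by limma on log2(TPM + 1), adjusted p = 1.22e-06).

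Genes of the NODAL and TGF-beta pathway were lower in greater number than higher, with 10 of 21 tested falling and 3 rising, 5 of the falls more than 2-fold. NODAL, the ligand that signals through SMAD2 and SMAD3 in the early embryo, was at 9.65, 5.13 and 4.13 TPM in Cond 1 and at 1.35, 1.40 and 1.00 TPM in Cond 3 (log2 fold change -2.34, SE 0.42, adjusted p = 0.000116). All Cond 3 values lay below the lowest Cond 1 value, although Cond 1 itself ranged widely and the reads were few, 9 to 14 per library in Cond 3. INHBE, an inhibin beta chain known also as a target of the unfolded protein response and ATF4, was at 82.2, 73.2 and 80.7 TPM in Cond 1 and at 8.63, 8.51 and 6.37 TPM in Cond 3 (log2 fold change -3.35, SE 0.11, adjusted p = 7.12e-16). TGFB1, the TGF-beta 1 ligand, rose 1.86-fold (log2 fold change 0.90, SE 0.13, adjusted p = 7.89e-06), and INHBA, the activin A chain, rose from 0.284 to 1.11 TPM (adjusted p = 0.00440). LEFTY1, a secreted NODAL inhibitor, is named after its values were seen, since 57.1% of the 31-base words of its transcripts occur in other genes. It was listed at 6.24, 9.63 and 7.13 TPM in Cond 1 and at 0.259, 0.676 and 0.299 TPM in Cond 3 (log2 fold change -4.22, SE 0.47, adjusted p = 2.23e-07).

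Among the gene lists with tested members, the lowest median was that of the targets of ATF4 and the integrated stress response. All 17 members tested fell, 14 of them more than 2-fold, with a median log2 fold change of -2.40, and their summed level went from 3989.6 ± 188 TPM in Cond 1 to 1588 ± 14.9 TPM in Cond 3 (SD, n = 3) over the 20 members. CHAC1, an enzyme that breaks down glutathione, was at 346, 331 and 338 TPM in Cond 1 and at 27.4, 48.2 and 39.3 TPM in Cond 3. The fall was 9.05-fold (log2 fold change -3.18, SE 0.12, adjusted p = 6.73e-15), and the Cond 3 libraries lay far below those of Cond 1. TRIB3, a pseudokinase that restrains ATF4 and AKT signalling, was at 158, 118 and 142 TPM in Cond 1 and at 12.1, 17.5 and 13.9 TPM in Cond 3 (log2 fold change -3.30, SE 0.15, adjusted p = 1.67e-13). ATF5, a transcription factor that is itself an ATF4 target and overlaps IL4I1 and NUP62, was at 161, 111 and 186 TPM in Cond 1 and at 10.7, 18.1 and 15.8 TPM in Cond 3 (log2 fold change -3.40, SE 0.17, adjusted p = 3.76e-13). GDF15, a stress-induced cytokine, was at 157, 94.3 and 122 TPM in Cond 1 and at 7.35, 9.19 and 7.49 TPM in Cond 3 (log2 fold change -3.99, SE 0.21, adjusted p = 1.51e-12). None of the 4 genes overlapped between the conditions, and replicate 2 was the lowest of the Cond 1 libraries for each of them. DDIT4, an inhibitor of mTORC1 signalling also listed among hypoxia genes, fell 5.28-fold from 422 to 81.3 TPM (adjusted p = 5.16e-14). NUPR1, a small stress-induced chromatin protein, was at 1.89, 1.72 and 1.71 TPM in Cond 1 and at 0.288, 0.0644 and 0 TPM in Cond 3, with 0 to 10 reads per library in Cond 3 (log2 fold change -3.83, adjusted p = 1.51e-06, and -5.62 without Cond 3 replicate 1). The mRNA of ATF4 itself, which has no count row, changed much less. It was at 664, 646 and 625 TPM in Cond 1 and at 551, 533 and 518 TPM in Cond 3 (log2 fold change -0.27 by limma on log2(TPM + 1), SE 0.04, adjusted p = 0.000446), and 45.9% of its words occur in other genes.

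The enzymes that supply amino acids and one-carbon units, which are ATF4 targets in many cells, fell as well, by less. In the serine, glycine and one-carbon list 11 of 15 fell and 1 rose (median log2 fold change -0.88). PSAT1, the aminotransferase of serine synthesis, was at 1546, 1391 and 1617 TPM in Cond 1 and at 537, 562 and 533 TPM in Cond 3 (log2 fold change -1.51, SE 0.066, adjusted p = 5.90e-14), without overlap. ALDH1L2, a mitochondrial folate enzyme, fell 2.86-fold (adjusted p = 6.02e-10), and MTHFD1, a cytosolic enzyme of folate metabolism, was the member that rose, by 1.16-fold (adjusted p = 0.00569). Of 15 amino acid transporters, 9 fell and 5 rose. SLC7A11, the cystine importer, was at 54.1, 51.4 and 61.8 TPM in Cond 1 and at 13.1, 14.9 and 13.0 TPM in Cond 3 (log2 fold change -2.05, SE 0.085, adjusted p = 2.43e-14). SLC1A4, a carrier of alanine, serine and cysteine, fell 3.31-fold (adjusted p = 9.81e-09), whereas SLC6A6, the taurine transporter, rose 1.63-fold (adjusted p = 1.03e-09) and SLC7A6, a transporter of cationic and neutral amino acids, rose 1.57-fold (adjusted p = 0.000110). Of the 19 cytosolic aminoacyl-tRNA synthetases, which load amino acids onto tRNAs, 13 fell and none rose (median log2 fold change -0.45). AARS1, the alanine enzyme, was at 562, 584 and 591 TPM in Cond 1 and at 273, 279.5 and 280.2 TPM in Cond 3, 2.13-fold lower (log2 fold change -1.09, SE 0.064, adjusted p = 8.93e-12). GARS1 for glycine, YARS1 for tyrosine and WARS1 for tryptophan fell by 1.09, 0.92 and 0.89 on the log2 scale (adjusted p = 6.12e-13, 2.08e-11 and 1.43e-09).

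The promoters of these genes were searched for the core of the amino acid response element, the site bound by ATF4, spelled TGATGNAA, on both strands from 250 bases before to 50 bases after the annotated start. The sequences are those of RefSeq on GRCh38.p14. The core was found in 4 of the 18 promoters available for the ATF4 list (22.2%), in 6 of 16 for the aminoacyl-tRNA synthetases (37.5%), in 4 of 12 for the amino acid transporters (33.3%) and in 2 of 11 for serine, glycine and one-carbon synthesis (18.2%), beside 1.66% of 12000 promoters of genes tested and 3.67% of all 27305 promoters. Of the 6 synthetases with the core 5 fell, and of the 10 without it 6 fell. Among the transporters 2 of 4 with the core fell and 5 of 8 without it, and in the serine, glycine and one-carbon list 2 of 2 with it and 4 of 8 without it. In the ATF4 list all 11 tested members without the core fell as well as the 4 with it. A match is a description of the letters and no measurement of binding. 3 stretches, upstream of the start sites of genes described here, are printed from 5′ to 3′ on the strand of the gene with the core in capitals, and in CHAC1 and AARS1 it lies on the strand opposite to the gene.
CHAC1, chr15:40953222-40953309, + strand: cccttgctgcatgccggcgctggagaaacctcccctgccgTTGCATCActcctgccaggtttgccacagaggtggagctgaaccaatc
ATF3, chr1:212565176-212565263, + strand: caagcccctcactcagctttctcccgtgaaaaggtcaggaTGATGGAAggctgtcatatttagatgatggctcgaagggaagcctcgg
AARS1, chr16:70289646-70289733, - strand: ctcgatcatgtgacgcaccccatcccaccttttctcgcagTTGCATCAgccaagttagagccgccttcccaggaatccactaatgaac

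The core of the sterol regulatory element, TCACNCCAC, was found in 1 of 19 promoters of the sterol list (5.26%), beside 1.14% of promoters of genes tested. An ETS site, ACCGGAAGT, was in none of 12 promoters of the ERK list, beside 1.86%.

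These falls were also seen against Cond 2, the other culture in which cells received an altered medium, from an earlier day by the study's account. The same Cond 3 libraries were on the other side of the comparison. There 19.0% of the genes tested were higher in Cond 3 and 19.2% lower. All 17 tested members of the ATF4 list, 18 of 19 in the ERK list and 11 of 19 aminoacyl-tRNA synthetases were lower in Cond 3 than in Cond 2. CHAC1 stood at a mean of 364 TPM in Cond 2 and 340.1 TPM in Cond 4, next to 339 TPM in Cond 1 and 38.3 TPM in Cond 3 (log2 difference from Cond 2 -3.20, adjusted p = 6.96e-15). ATF5 was at means of 187 and 160.3 TPM in Cond 2 and Cond 4 (Cond 3 against Cond 2 -3.60, adjusted p = 1.38e-13). DUSP6, by contrast, had a mean of 35.0 TPM in Cond 2, between Cond 1 and Cond 3, and Cond 3 remained -4.18 on the log2 scale from it (adjusted p = 3.73e-14).

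**Figure D3:**
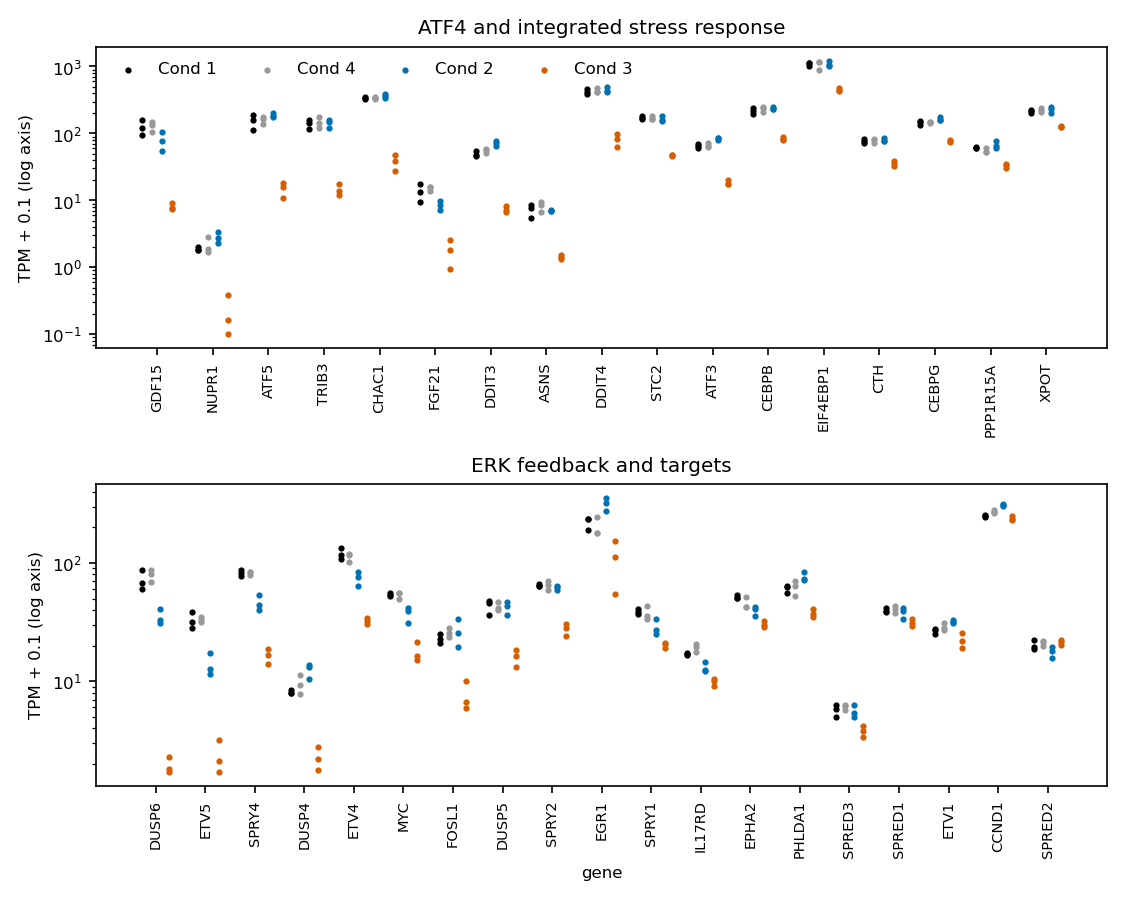
TPM plus 0.1 (log axis) in each library of the 4 conditions for the 17 tested members of the ATF4 list (top) and the 19 of the ERK list (bottom), ordered by the size of the change from Cond 1 to Cond 3. The 3 orange Cond 3 points lie below the other conditions for every gene of the upper panel, while the blue Cond 2 points of DUSP6, ETV5 and SPRY4 lie between Cond 1 and Cond 3.

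Targets of p53, which include growth-arrest and stress genes, fell in greater number than they rose. Of 19 p53 targets 13 fell and 1 rose, with a median log2 fold change of -0.61. CDKN1A, the p21 inhibitor of cyclin-dependent kinases, was at 66.6, 46.5 and 62.2 TPM in Cond 1 and at 13.2, 12 and 14.1 TPM in Cond 3 (log2 fold change -2.19, SE 0.23, adjusted p = 1.05e-07), without overlap. PLK3, a stress-responsive kinase, fell 2.61-fold (adjusted p = 7.75e-07). FAS, a death receptor, was the member that rose, from 1.49 to 4.87 TPM (log2 fold change 1.67, SE 0.28, adjusted p = 4.75e-05). Of the apoptosis regulators, PMAIP1 (NOXA), a BH3-only activator of apoptosis, was at 453, 513 and 459.7 TPM in Cond 1 and at 196, 223 and 183 TPM in Cond 3 and fell 2.41-fold (adjusted p = 1.99e-12). BBC3 (PUMA) fell 1.58-fold (adjusted p = 2.05e-06), and BMF, another BH3-only gene, rose 2.04-fold (adjusted p = 7.93e-08). These last genes belong to a list in which 4 of 19 fell and 3 rose, shares of 21.1% and 15.8% near the 18.8% and 19.5% of all genes.

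Immediate early genes, transcribed within minutes of growth factor signals, fell in 9 of 15 cases and rose in none, 8 of the falls more than 2-fold. This list and the ERK list share members and have the same median log2 fold change, -1.08, so their falls are not separate findings. MYC, described with the ERK genes, is also a member. EGR3, an early zinc finger factor, was at 6.24, 4.92 and 4.17 TPM in Cond 1 and at 0.746, 1.05 and 1.16 TPM in Cond 3 (log2 fold change -2.40, SE 0.24, adjusted p = 4.93e-08). ATF3, shared with the ATF4 list, fell 3.62-fold, from 65.1 to 18.3 TPM (adjusted p = 1.13e-13), and FOSL1, an AP-1 subunit, fell 3.11-fold (adjusted p = 9.65e-07). Targets of SRF and YAP, which respond to the actin cytoskeleton and to cell tension, fell in 16 of 23 cases and rose in 2. CCN2, a matrix-associated YAP target, was at 492, 458 and 443 TPM in Cond 1 and at 97.9, 148 and 114 TPM in Cond 3 (log2 fold change -1.98, SE 0.096, adjusted p = 3.30e-13). TPM2, a tropomyosin, and AMOTL1, a YAP-binding junction protein, were the members that rose, by 1.31-fold and 1.23-fold (adjusted p = 2.23e-05 and 0.00300). ANKRD1, another YAP target, passed the test (log2 fold change -1.42, adjusted p = 0.0481) through Cond 1 replicate 3 at 23.1 TPM, and without that library the log2 fold change was -0.11 (adjusted p = 0.899).

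Genes that follow glucose, hormones and metals moved in both directions. Of 17 genes of the insulin and FOXO list 6 rose and 6 fell (35.3% each). IGFBP3, an IGF-binding protein, rose 2.1-fold and CITED2, a transcriptional co-regulator, 1.70-fold (adjusted p = 2.05e-07 and 1.47e-09). TXNIP and ARRDC4 of the same list, arrestin-family genes that are induced when glucose metabolites build up, fell from 209 to 54.1 TPM and from 58.2 to 12 TPM. Their log2 fold changes were -1.98 (SE 0.12, adjusted p = 1.49e-11) and -2.30 (SE 0.096, adjusted p = 2.70e-14). TSC22D3, a leucine zipper gene induced by glucocorticoids, was at 70.6, 74.4 and 75.8 TPM in Cond 1 and at 18.0, 19.0 and 18.5 TPM in Cond 3 (log2 fold change -2.02, SE 0.084, adjusted p = 2.43e-14). KLF9, which is also a glucocorticoid target, rose 2.22-fold at a low level (adjusted p = 0.000565), so the list moved in both directions, with 4 of 8 higher and 2 lower. Of 9 metallothionein and zinc genes 4 fell and 1 rose. MT1G, a metal-binding protein, was at 21.1, 33.6 and 11.4 TPM in Cond 1 and at 0.653, 9.01 and 5.53 TPM in Cond 3 (log2 fold change -2.15, SE 0.46, adjusted p = 0.000765), and -2.89 without replicate 2 of Cond 3.

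**Figure D4:**
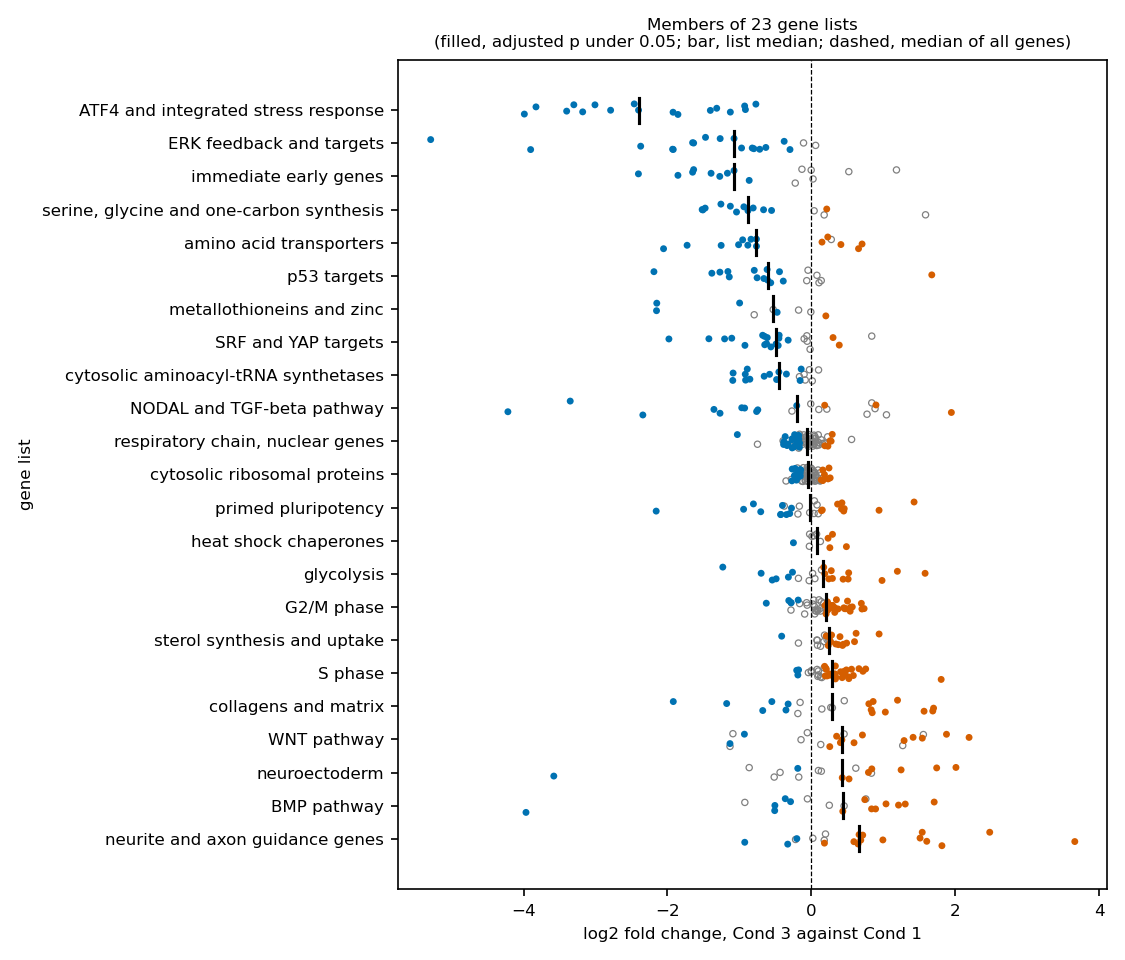
Log2 fold change of Cond 3 against Cond 1 (horizontal) for each tested member of 23 gene lists (vertical); filled points passed an adjusted p of 0.05 (orange higher, blue lower), open points did not, bars are list medians and the dashed line is the median of all genes. The ATF4 list has its bar at -2.40 with every point to the left of 0, and the ribosomal proteins are packed around 0.

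Genes of primed pluripotency, the state of conventional human iPSCs, split between rises and falls. Of 27 tested 9 rose and 10 fell, and the median log2 fold change was -0.02. NANOG, a homeobox factor of the pluripotency network, was at 46.7, 47.2 and 43.6 TPM in Cond 1 and at 9.93, 11.3 and 10.2 TPM in Cond 3 (log2 fold change -2.16, SE 0.085, adjusted p = 1.40e-14). SOX2, its partner factor, was at 909, 938 and 878 TPM in Cond 1 and at 1259, 1272 and 1258 TPM in Cond 3, 1.36-fold higher (log2 fold change 0.45, SE 0.042, adjusted p = 1.89e-08). The conditions did not overlap for either gene, and they moved in opposite directions. OTX2, a homeobox factor of the epiblast and forebrain, rose 1.92-fold (adjusted p = 9.61e-08), and GAL, a neuropeptide gene abundant in iPSCs, fell 1.75-fold (adjusted p = 1.85e-07). LIN28A, an RNA-binding protein that blocks let-7, was at 1613, 1804 and 1651 TPM in Cond 1 and at 2051, 1826 and 1814 TPM in Cond 3, and its small difference (log2 fold change 0.14, SE 0.051, adjusted p = 0.0343) was not called without replicate 1 or 3 of Cond 1 or replicate 1 of Cond 3 (adjusted p = 0.181, 0.0928 and 0.235). Among further markers, DNMT3B, a de novo DNA methyltransferase, rose from 1371 to 1868 TPM (adjusted p = 8.73e-07), DPPA4 fell from 681 to 516 TPM (adjusted p = 5.96e-08) and L1TD1 from 592 to 449 TPM (adjusted p = 6.82e-08). POU5F1 is not compared, because alternate haplotype sequences hold 89.7% of its words. At the cell surface THY1 (CD90) was at 157, 140.5 and 126 TPM in Cond 1 and at 48.6, 49.2 and 48.9 TPM in Cond 3 (log2 fold change -1.56, SE 0.076, adjusted p = 3.63e-13), and EPCAM, an epithelial adhesion protein, fell 1.79-fold (adjusted p = 1.60e-11). CDH1 (E-cadherin) and CLDN6, a tight junction claudin, rose 1.19-fold and 1.21-fold (adjusted p = 0.000231 and 4.75e-05).

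WNT pathway genes rose in 11 of 21 cases and fell in 2 (52.4% and 9.52%, beside 19.5% and 18.8% of all genes). FRZB, a secreted WNT antagonist, was at 3.44, 4.98 and 4.66 TPM in Cond 1 and at 22.8, 18.9 and 19.0 TPM in Cond 3 (log2 fold change 2.19, SE 0.23, adjusted p = 9.94e-08). WNT5A, a ligand of non-canonical WNT signalling, was at 3.36, 2.38 and 4.20 TPM in Cond 1 and at 14.5, 12.2 and 10.9 TPM in Cond 3 (log2 fold change 1.88, SE 0.18, adjusted p = 2.79e-08). SFRP2, an abundant WNT antagonist of these cells, fell 2.19-fold from 737 to 343 TPM (adjusted p = 1.05e-10). The groups did not overlap for these 3 genes. BMP pathway genes were mixed, with 8 of 18 higher and 5 lower. BMP2, a BMP ligand, was at 8.55, 8.96 and 8.81 TPM in Cond 1 and at 31.5, 29.1 and 26.9 TPM in Cond 3 (log2 fold change 1.71, SE 0.13, adjusted p = 5.81e-10), and ID2, an inhibitor of bHLH factors and a BMP target, rose 2.47-fold (adjusted p = 3.54e-07). BAMBI, a decoy receptor, fell 1.42-fold (adjusted p = 0.00137), and MSX1, a homeobox target of BMP, was counted 6 to 23 times in the Cond 1 libraries and 0 to 2 times in those of Cond 3. In the Notch and Hedgehog list 8 of 15 rose and 4 fell. PTCH1, the Hedgehog receptor and a target of the pathway, rose 1.80-fold (adjusted p = 3.57e-08), while HEY2, a Notch target, fell 2.03-fold (adjusted p = 0.000167). Among retinoic acid genes 6 of 14 rose and 1 fell, including TGM2, a transglutaminase that responds to retinoic acid, 2.97-fold (adjusted p = 0.000330), and ALDH1A1, a retinaldehyde dehydrogenase, 2.2-fold (adjusted p = 0.00580). These lists stood differently against Cond 2, where 19.0% of all genes were higher in Cond 3 and 19.2% lower. There 5 WNT genes were higher and 5 lower, and 2 BMP genes were higher and 11 lower. The Notch and Hedgehog list had 4 higher and 5 lower, and the retinoic acid list 4 and 4.

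Genes of the 2 neural lists rose in greater number than they fell, at low to moderate levels. In the list of neurite and axon guidance genes 13 of 20 rose and 3 fell, 6 of the rises more than 2-fold (median log2 fold change 0.65). STMN2, a microtubule regulator of growing neurites, was at 1.38, 0.538 and 1.01 TPM in Cond 1 and at 14.3, 10.8 and 13.6 TPM in Cond 3 (log2 fold change 3.66, SE 0.30, adjusted p = 1.96e-09). CSPG5, a neural chondroitin sulfate proteoglycan, was at 2.2, 3.06 and 2.31 TPM in Cond 1 and at 8.07, 9.45 and 9.49 TPM in Cond 3 (log2 fold change 1.81, SE 0.20, adjusted p = 2.29e-07). Both genes separated the conditions without overlap. SLIT2, a guidance ligand, fell 1.90-fold (adjusted p = 8.17e-05). Against Cond 2, 11 of the 20 neurite genes were higher in Cond 3 and 8 lower, beside 19.0% and 19.2% of all genes. In the neuroectoderm list 7 of 17 rose and 2 fell, with log2 fold changes from -3.58 to 2.01. LHX5, a homeobox gene of the forebrain, was at 4.27, 10.2 and 9.36 TPM in Cond 1 and at 38.8, 23.3 and 34.8 TPM in Cond 3 (log2 fold change 2.01, SE 0.24, adjusted p = 6.06e-07), and NCAM1, a neural adhesion molecule, rose 3.34-fold (adjusted p = 5.25e-08). Compared with Cond 2, however, 9 of the 17 were lower in Cond 3 and 4 higher, and LHX5 was at a mean of 262 TPM in Cond 2 (Cond 3 against Cond 2 -2.96, adjusted p = 6.31e-11). Mesendoderm genes were rarely detected, with 8 of 17 tested. TBXT, the primitive streak factor brachyury, had 0 to 3 reads in the libraries of Cond 1 against 11 to 20 in Cond 3, and KDR, a VEGF receptor, fell 1.60-fold (adjusted p = 5.29e-06). For surface ectoderm and amnion, VTCN1 had 0 to 3 reads in Cond 1 and 14 to 22 in Cond 3, and GABRP, a GABA receptor subunit, fell 2.61-fold (adjusted p = 1.89e-05).

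Single genes with the widest changes were of diverse function. Among DEGs with a symbol, a mean of at least 5 TPM in the higher condition and no overlap, the 15 largest rises included FEZF1, a forebrain zinc finger repressor, at 4.57, 8.06 and 5.34 TPM in Cond 1 and at 70.0, 54.3 and 57.3 TPM in Cond 3. FEZF1-AS1, which overlaps FEZF1 on the opposite strand, was at 3.63, 5.94 and 5.34 TPM in Cond 1 and at 53.8, 43.2 and 51.4 TPM in Cond 3. OLIG3, a bHLH factor of the dorsal neural tube, was at 3.10, 3.41 and 2.75 TPM in Cond 1 and at 34.7, 26.8 and 26.1 TPM in Cond 3. Reads of FEZF1 and FEZF1-AS1 can be told apart only if strand was used in counting, which is not given in the sources used here. The log2 fold changes of the 3 genes were 3.33, 3.29 and 3.22 (SE 0.17, 0.21 and 0.22, adjusted p = 8.80e-13, 2.25e-11 and 8.95e-11). FEZF1 and FEZF1-AS1 were higher still in Cond 2, at means of 128 and 115 TPM, whereas OLIG3 was at 1.29 TPM there (Cond 3 against Cond 2 -1.03, -1.17 and 4.55, adjusted p = 2.12e-06, 4.25e-06 and 2.01e-12). Other rises were BHMT, betaine-homocysteine methyltransferase, which overlaps DMGDH, at 0.0521, 0.182 and 0.538 TPM in Cond 1 and at 4.03, 5.29 and 5.84 TPM in Cond 3 (adjusted p = 5.30e-07), and HTR1A, a serotonin receptor, at 0.898, 0 and 1.69 TPM in Cond 1 and at 11.8, 14.7 and 12 TPM in Cond 3 (adjusted p = 2.52e-06). Signalling molecules in this group were WNT4, 6.93-fold higher (adjusted p = 6.73e-08), the scavenging chemokine receptor ACKR3, 6.16-fold (adjusted p = 4.34e-07), the TNF family ligand CD70, 9.39-fold (adjusted p = 5.67e-05), and the chemokine CCL26, which had 0 to 6 reads in Cond 1 libraries against 32 to 46 in Cond 3 (adjusted p = 0.000872). TMEM255A, KIF19 (a kinesin of motile cilia), LIX1, RPRML, AFAP1L2 and STMN2 completed the rises, with log2 fold changes of 4.39, 3.58, 3.01, 2.88, 2.79 and 3.66. CD70 and TMEM255A each had 2 to 8 reads in Cond 1 libraries, against 37 to 60 and 97 to 148 in Cond 3. BHMT had 1 to 11 against 86 to 108. Genes with so few reads in Cond 1 could pass the filter on low counts only through another condition. They could hardly be called as falls. The size of some of these rises, but not the call, changed when a Cond 1 library was left out. Without replicate 3 the log2 fold change was 5.38 for BHMT, 4.69 for HTR1A and 4.1 for LIX1, against 4.19, 3.78 and 3.01, and LIX1 was at 2.41 without replicate 1. CCL26 was at 2.89 without replicate 3 and 4.39 without replicate 1, against 3.49. Without replicate 2 the value was 4.98 for TMEM255A and 3.95 for CD70, against 4.39 and 3.23. Against Cond 2, 12 of these 15 genes were higher in Cond 3 and 3 (FEZF1, FEZF1-AS1 and LIX1) lower, of which LIX1 was not called by DESeq2 (log2 fold change -1.36, adjusted p = 0.219; -1.37 and adjusted p = 0.00326 by edgeR). Of all genes 19.0% were higher there and 19.2% lower. The Cond 3 libraries of this comparison also served to choose the 15 genes, so the count follows in part from the selection.

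The 15 largest falls held ATF4 and ERK genes described above (DUSP6, ETV5, GDF15, ATF5, TRIB3 and CHAC1, and INHBE) and 8 others. GBX2, a homeobox gene of the midbrain-hindbrain boundary and of pluripotent cells, was at 6.93, 4.63 and 9.88 TPM in Cond 1 and at 0, 0 and 0.808 TPM in Cond 3, with 51 to 135 reads in Cond 1 and reads in replicate 3 alone in Cond 3 (10), and its log2 fold change was -4.78 (SE 0.70, adjusted p = 1.02e-05, -4.16 without Cond 3 replicate 1 and -9.52 without replicate 3, which leaves no read in Cond 3). ULBP1, a ligand that marks stressed cells for natural killer cells, was at 4.97, 4.75 and 5.74 TPM in Cond 1 and at 0.254, 0.398 and 0.117 TPM in Cond 3 (log2 fold change -4.32, SE 0.34, adjusted p = 1.12e-09). G0S2, an inhibitor of the lipase ATGL, was at 101, 83.7 and 98.6 TPM in Cond 1 and at 3.35, 9.80 and 6.88 TPM in Cond 3 (log2 fold change -3.87, SE 0.23, adjusted p = 9.95e-12). All Cond 3 values were below all Cond 1 values for these 3 genes, as the selection required. CALCA, the calcitonin and CGRP gene, which overlaps CALCB, fell 13.8-fold (adjusted p = 3.57e-08, log2 fold change -3.79, and -4.40 without Cond 3 replicate 1) and HMX2, a homeobox gene, 9.95-fold (adjusted p = 6.24e-08). The non-coding RNAs LINC02700 and HSD11B1-AS1, the latter overlapping G0S2 on the other strand and sharing its reads if strand was not used, fell from 29.2 to 1.78 TPM and from 9.02 to 0.511 TPM (adjusted p = 2.41e-13 and 0.000142; HSD11B1-AS1 had reads, 4, in replicate 2 of Cond 3 alone, and its log2 fold change of -4.08 was -7.56 without it and -3.49 without replicate 1), and FOXL2NB fell from 6.04 to 0.557 TPM (adjusted p = 1.22e-07). Against Cond 2, 13 of the 15 were lower in Cond 3 as well, a count that again follows in part from the selection by the same Cond 3 libraries. GBX2 and FOXL2NB were not called against Cond 2 (log2 fold change -0.62 and -0.14, adjusted p = 0.667 and 0.851), where they were at means of 0.426 and 0.656 TPM. HMX2 was on the other side of Cond 1 there, at 16.6 TPM (Cond 3 against Cond 2 -4.30, adjusted p = 5.71e-10).

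**Figure D5:**
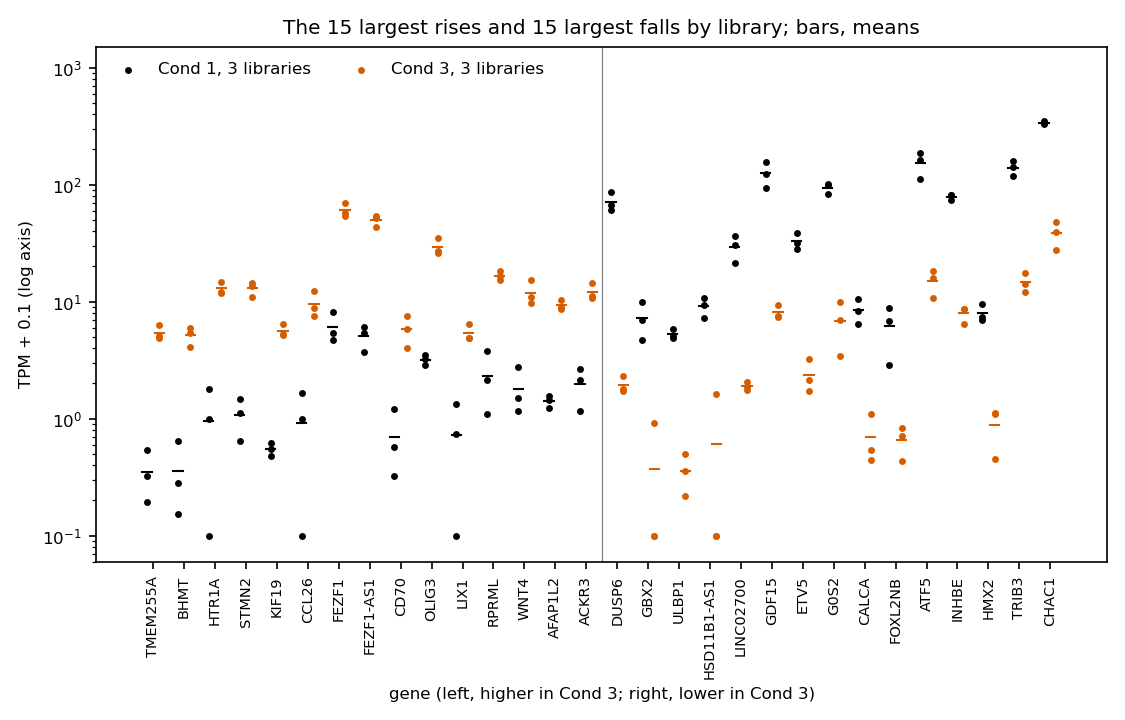
TPM plus 0.1 (log axis) of the 15 largest rises (left) and the 15 largest falls (right) in the 3 libraries of Cond 1 (black) and of Cond 3 (orange), with bars at the means. No gene overlaps between the conditions, as its selection required, and DUSP6 goes from a mean of 71.3 to 1.84 TPM.

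The highest adjusted significance of all genes belonged to a non-coding RNA without an official symbol, AL591742.2 (ENSG00000282048), which was singled out after its values were seen. Its annotated position is chr1:114032377-114034511 (GRCh38, + strand), as a lncRNA. It was at 4.20, 4.50 and 3.95 TPM in Cond 1 and at 183, 163 and 191 TPM in Cond 3. It rose 41.7-fold (log2 fold change 5.38, SE 0.15, adjusted p = 5.18e-17), from 45 to 49 reads in the Cond 1 libraries to 1891 to 2370 reads in those of Cond 3. In Cond 2 its mean was 15.1 TPM, against 4.95 TPM in Cond 4, with a log2 fold change of 3.63 from Cond 2 to Cond 3 (adjusted p = 4.33e-15).

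Cell cycle genes rose in small steps. Of 40 S phase genes 27 rose and 3 fell (median log2 fold change 0.28), and of 49 G2/M genes 26 rose and 5 fell (median 0.20), with 1 change above 2-fold in both lists together. That gene was UHRF1, which guides maintenance DNA methylation at replication, at 38.5, 45.3 and 40.2 TPM in Cond 1 and at 158, 138 and 145 TPM in Cond 3 (log2 fold change 1.80, SE 0.068, adjusted p = 7.11e-15). POLA1, a DNA polymerase subunit, rose 1.69-fold and the proliferation marker MKI67 1.63-fold (adjusted p = 6.23e-09 and 9.65e-08), and CKS1B, a cyclin-dependent kinase subunit, fell 1.54-fold (adjusted p = 3.36e-07). CCNE1, the cyclin of S phase entry, was at 51.5, 59.3 and 48.3 TPM in Cond 1 and at 102, 108 and 114 TPM in Cond 3 (log2 fold change 1.00, SE 0.085, adjusted p = 3.78e-09), and CDKN2D, an inhibitor of CDK4 and CDK6, rose 2.65-fold (adjusted p = 0.000531).

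Sterol synthesis genes also rose by less than 2-fold, in 14 of 24 cases with 1 fall (median log2 fold change 0.25). HMGCS1, an early enzyme of cholesterol synthesis, was at 46.6, 61.4 and 48.6 TPM in Cond 1 and at 93.7, 116 and 96.1 TPM in Cond 3 (log2 fold change 0.94, SE 0.10, adjusted p = 1.42e-07). FASN, fatty acid synthase, rose 1.57-fold (adjusted p = 5.23e-08). At the same time ABCA1 and ABCG1, exporters of cholesterol that respond to oxysterols, were higher, at 5.90, 6.26 and 6.39 TPM in Cond 1 and at 14.8, 12.2 and 12.2 TPM in Cond 3 for ABCA1 (log2 fold change 1.05, adjusted p = 4.73e-08) and at 2.40, 1.59 and 1.90 TPM in Cond 1 and at 7.41, 5.70 and 7.30 TPM in Cond 3 for ABCG1, which has no count row (log2 fold change 1.40 by limma on log2(TPM + 1), adjusted p = 0.000260). Glycolysis genes rose in 11 of 22 cases and fell in 6. SLC16A3, the lactate exporter MCT4, rose 2.99-fold at a low level (adjusted p = 6.40e-06), while SLC2A3, the glucose transporter GLUT3, fell from 443 to 192 TPM (adjusted p = 1.36e-12) and HK1, a hexokinase, 1.62-fold (adjusted p = 6.77e-10). VEGFA, an angiogenic factor that answers to hypoxia and to ATF4, fell 2.92-fold (log2 fold change -1.54, SE 0.096, adjusted p = 2.07e-11).

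Matrix and adhesion genes changed in both directions. Of 21 collagen and matrix genes 9 rose and 6 fell. COL12A1, a fibril-associated collagen, was at 2.41, 2.07 and 2.56 TPM in Cond 1 and at 7.02, 9.17 and 7.17 TPM in Cond 3. TNC, tenascin C, was at 2.75, 2.59 and 4.74 TPM in Cond 1 and at 10.2, 12 and 11.2 TPM in Cond 3. These genes rose 3.24-fold and 3.22-fold (adjusted p = 1.51e-06 and 7.05e-07) without overlap. COL2A1, the cartilage collagen, was at 22.3, 23.3 and 29.6 TPM in Cond 1 and at 4.90, 6.00 and 9.50 TPM in Cond 3 (log2 fold change -1.92, SE 0.23, adjusted p = 6.93e-07), and THBS1, thrombospondin 1, fell 2.26-fold (adjusted p = 1.15e-09). ITGB5, an integrin chain for vitronectin, fell 2.42-fold and LAMB3, a laminin chain, rose 4.21-fold (adjusted p = 2.68e-13 and 8.39e-05). VIM, the intermediate filament protein vimentin, rose 2.1-fold from 36.5 to 78.0 TPM (adjusted p = 9.84e-07).

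Genes of the ribosome and the respiratory chain changed by small amounts. Of 75 cytosolic ribosomal protein genes 7 rose and 13 fell (9.33% and 17.3%), none of them more than 2-fold, with a median log2 fold change of -0.04. Of 68 nuclear genes of the respiratory chain 5 rose and 19 fell (7.35% and 27.9%), with a median of -0.06. Heat shock chaperones rose in 4 of 11 cases and fell in 1, and BAG3, a co-chaperone, rose 1.40-fold (adjusted p = 0.00152). HSPA5 (BiP) and CALR, chaperones of the endoplasmic reticulum, rose 1.39-fold and 1.36-fold (adjusted p = 3.46e-07 and 4.45e-07), in a list with 2 rises and 2 falls among 13 (15.4% each, below the shares of all genes). The 13 mitochondrially encoded protein genes took 10.4, 7.82 and 11.8% of all TPM in Cond 1 and 9.32, 10.4 and 10.1% in Cond 3. These shares overlapped (difference -0.0707 percentage points, exact two-sided permutation test, p = 1, smallest possible p 0.1).

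Genes without a count row, mostly on chromosomes 21 and 22, were tested on log2(TPM + 1) with limma, where 16.1% of 20538 genes rose and 12.6% fell. Of 667 such genes fitted, 102 rose and 81 fell. MAPK8IP2, a neuronal scaffold of JNK signalling, was at 2.22, 3.04 and 2.62 TPM in Cond 1 and at 12.1, 13.1 and 12.4 TPM in Cond 3 (log2 fold change 1.91, adjusted p = 7.08e-06). ADM2, an adrenomedullin-family peptide, was at 53.9, 48.3 and 56.2 TPM in Cond 1 and at 18.3, 16 and 17.0 TPM in Cond 3 (log2 fold change -1.57, adjusted p = 3.01e-07). CDC42EP1, an effector of CDC42 in actin organization, fell from 90.3 to 36.5 TPM (log2 fold change -1.28, adjusted p = 2.62e-06). Fold changes on this scale understate those of weakly expressed genes.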

How the data were processed

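RNA-Seq was measured in 12 libraries, 3 per condition. The authors trimmed reads with fastp 0.20.1, aligned them to GRCh38 with HISAT2 2.1.0, counted genes with featureCounts from strand-specific poly(A) libraries and deposited whole-number counts. The TPM values were also deposited by the authors, as counts per gene length scaled to one fixed total per library; how reads with several matches were counted is not given in the sources used here. Of 58580 count lines 5 were unusable, and 2042 of 60617 genes, among them all 37 mitochondrial genes, had only TPM.

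TMM-normalized counts entered 1 edgeR 4.0.16 quasi-likelihood fit over the 12 libraries, after its filter on low counts. TPM was tested with limma 3.58.1, with a pseudocount of 1, in genes whose mean TPM reached 0.5. The methods were tried on simulated counts of 17747 genes with the same spread set for every gene. There edgeR recovered 90 of 100 genes changed 2-fold and 95 of 100 changed 4-fold, with 11 false calls. For limma these were 89, 94 and 10. The simulation lacks the differences in spread between genes of the real data, so it does not give their error rate. Alternatives were DESeq2 1.42.0, other normalizations and filters, a replicate block and each library left out. Replicates differed by more than sampling noise (chi-square per gene 4.18 to 6.77). Depth limits genes with few reads, for which counting error is large.

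Named were the 15 largest rises and falls among coding and lncRNA DEGs with a symbol, no overlap and 5 TPM or more in the higher mean, up to 4 members per list at a TPM of at least 1, and core pluripotency genes. Genes with more than 50% of their 31-base words in other genes or alternate haplotypes were left out of the rule, and some genes it names are not reported here. The 50 gene lists, the genes and the comparison were chosen with earlier results of these data known. Of the 1061 genes in the lists, 41 were in 2 or more of them. Coordinates are from GENCODE release 44.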

Additional observations from a re-analysis of the deposited data

How the results depend on the processing

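The DEGs of Cond 3 against Cond 1 numbered 1445 by DESeq2, 1465 with upper-quartile normalization, 1550 without a filter, 1448 in the 6 libraries alone and 1285 to 1417 with 1 library left out, beside 1449. Requiring 1 TPM in each of the 12 libraries, which 14253 genes reached, left 663 (380 higher, 283 lower), limma on log2(TPM + 0.1) 674 (398 and 276) and on log2(TPM + 1) 484 (285 and 199) in these genes, and without a fold threshold there were 6811. Against Cond 2 the same 4 settings gave 763, 744, 553 and 6777, beside 1557. For 14 lists picked by hand, the count in 1 direction, also picked by hand, stayed within 1.5 times in all 196 cases. All other list counts moved further in 104 cases and stayed within it in 988. These include the opposite direction of the 14 lists, where any member was called. Same-numbered libraries did not deviate together (correlations 0.020, -0.011 and 0.036), and the main fit used no pairing. These values cannot show whether equal numbers share a run. A replicate block gave 1439. Of 194 named genes against Cond 1, 169 kept their direction and call in every setting run and none reversed. Against Cond 2, GBX2 (-0.62) ranged from -5.35 to 0.71 with 1 library left out, called (adjusted p = 0.0331) without Cond 3 replicate 3 alone, and turned to 0.71 without Cond 2 replicate 3 and 0.0084 without Cond 3 replicate 1. FOXL2NB (-0.14) ranged from -0.44 to 0.30, turning to 0.30 without Cond 2 replicate 3 and 0.11 without Cond 3 replicate 3, and was never called. The LIX1 call against Cond 2 was lost under DESeq2 (-1.36, adjusted p = 0.219). The mitochondrial difference ranged from -1.16 to 0.829 percentage points with 1 library left out. Depth limits genes such as GBX2, with 0 to 10 reads per library in Cond 3.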

Other observations

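Non-coding and coding genes differed in the direction of their changes. Of 2242 lncRNA genes tested 84 were DEGs higher in Cond 3 (3.75%) and 168 lower (7.49%), with a median log2 fold change of -0.18, whereas of 13771 protein-coding genes 755 were higher (5.48%) and 366 lower (2.66%), with a median of 0.01. Pseudogenes had 16 higher and 40 lower among 1550. These shares were not tested against each other, and genes were not matched on level.

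Imprinted genes and genes of iron handling were also read. Of 14 imprinted genes tested 5 rose and 1 fell: NNAT, a neuronal proteolipid gene, rose 1.73-fold and PEG10, a retrotransposon-derived gene, 1.71-fold, and SNRPN fell 1.36-fold (adjusted p = 3.07e-06, 7.13e-09 and 1.47e-05, edgeR). Of 6 iron genes tested 2 rose and 3 fell, none of them more than 2-fold. IREB2, an iron-regulatory RNA-binding protein, rose 1.44-fold and TFRC, the transferrin receptor, fell 1.27-fold (adjusted p = 3.51e-07 and 0.00160, edgeR). NQO1, a target of NRF2, fell 1.73-fold from 56.4 to 33.3 TPM (adjusted p = 4.31e-06, edgeR), in a list in which 6 of 14 fell and 1 rose. Of 9 genes for DNA methylation and its removal tested 5 rose and 1 fell, the fall being GADD45A, a p53- and stress-induced gene, 2.21-fold (adjusted p = 6.66e-08, edgeR). ASNS, asparagine synthetase, belongs to the ATF4 list and was lower 5.51-fold, but 99.5% of its words occur in another gene, so its reads could not be assigned with certainty.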
